A study of Homo sapiens with 8 samples.

Results

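Replication-dependent histone genes were identified as all peaks of the deposited table whose gene symbol begins with HIST1H, HIST2H, HIST3H or HIST4H. The rule gave 107 of 22506 Ago2 peaks, in 35 of 6326 genes. RNA bound by Ago2, the Argonaute protein that microRNAs guide to mRNAs, was recovered by crosslinking and immunoprecipitation (CLIP). The material was 293S, an established cell line derived from HEK293, which originated from human embryonic kidney. The treated cells had received emetine, an alkaloid that blocks translation elongation, at 20 µg/mL for 60 min, and the control cells had received no treatment. A single culture per treatment was divided into 3 aliquots for CLIP, each with an Ago2 antibody of another manufacturer, and 1 aliquot for RNA-seq. The p-values given here therefore measure the spread between aliquots and antibodies, not between cultures.

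Replication-dependent histone mRNAs are made in S phase, when new chromatin has to be assembled on replicating DNA. They lack a poly(A) tail and end in a conserved stem-loop that is bound by SLBP, and they are short, without introns and encoded by many near-identical copies. Their decay at the end of S phase starts with the addition of uridines to the stem-loop end and depends on UPF1 and on ongoing translation. The core histones H2A, H2B, H3 and H4 form the nucleosome, and H1 binds the linker DNA between nucleosomes.

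The members fell into 3 H1, 12 H2A, 9 H2B, 5 H3 and 6 H4 genes, with 20, 29, 21, 19 and 18 peaks in that order of classes. The HIST1 cluster on chromosome 6 held 28 of the genes and 96 of the peaks. The HIST2 cluster on chromosome 1 held 4 genes, HIST3 on chromosome 1 held 2 and HIST4 on chromosome 12 held 1. Of the 107 peaks, 69 (64.5%) lay in coding sequence, 24 (22.4%) in 3' UTRs and 14 in 5' UTRs. Among all listed peaks, coding sequence held 33.2% and 3' UTRs held 57.6%. The median histone peak was 35 nt wide and had 19 reads over the 6 CLIP libraries, against 30 nt and 15 reads for all peaks.

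The 3' stem-loop is the element that sets these transcripts apart, so the lettering found in members of different classes is shown, with the 16 bases of the stem and loop in capitals and 5 bases on either side in lower case (GENCODE 29 transcripts, written as DNA, 5′ to 3′).
HIST1H2AE (H2A): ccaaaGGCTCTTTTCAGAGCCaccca
HIST1H2AG (H2A): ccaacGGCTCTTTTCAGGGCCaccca
HIST1H2BC (H2B): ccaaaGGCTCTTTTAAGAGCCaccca
HIST1H3H (H3): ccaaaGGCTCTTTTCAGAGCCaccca
HIST1H4H (H4): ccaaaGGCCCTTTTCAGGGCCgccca
HIST4H4 (H4): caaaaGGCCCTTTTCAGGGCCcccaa
The 4 letterings shown were searched in all protein-coding transcripts of each gene. At least 1 of them was found in 29 of 19669 genes (0.147%) and in 0 on the opposite strand. Among the 35 members it was found in 16, and 10 of these carried the lettering of HIST1H2AE. The H4 lettering was found in 3 members, HIST1H4E, HIST1H4H and HIST4H4. Except for HIST1H1E and HIST1H4C, every member without a match had an annotated transcript that ends with its coding sequence. Such a transcript has no 3' UTR to search, so a missing match says only that these letters are not in that transcript. The stem-loop began 49 bases after the stop codon in HIST1H2AE, 41 in HIST1H4H and 23 in HIST1H2BH. The peaks have hg19 coordinates and these transcripts belong to a later build, so stem-loops and peaks were not placed against each other.

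Near-identical coding sequences limit how reads can be assigned to a single member. Of all 30-base windows in a member's coding sequence, a median of 38.4% also occurred in a gene elsewhere for H2B, 15.4% for H2A, 8.12% for H3, 1.59% for H4 and 0.979% for H1. In 6 members at least 50% of the windows did so: HIST1H2AI, HIST1H2BK, HIST2H2AC, HIST2H2BE, HIST2H2BF and HIST3H2BB. In 3 further members most windows were shared with an annotated gene that overlaps the member on the same strand. These were HIST1H3D (100%), HIST1H2AD (98.1%) and HIST1H2AM (87.1%). Coding peaks and RNA values of the 6 genes are uncertain as values of 1 gene, and so are those of the 3 with an overlapping gene. HIST1H2AI, HIST2H2AC, HIST2H2BE and HIST2H2BF had CLIP peaks in UTRs only. UTR sequences were not compared between genes, so the assignment of UTR reads was not assessed. How the authors treated reads with several matches is not given in the sources used here.

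The mean share of CLIP reads in histone peaks was higher with emetine than in the control, with libraries that overlapped. The read numbers were recovered from the deposited averages and ratios for 22499 peaks, histone peaks included. Libraries are numbered within a treatment by the falling value of 1 normalised read, from the shallowest library upward, and equal numbers in the 2 treatments are not known to share an antibody. Reads in listed peaks came to 40900, 104802 and 97055 in emetine libraries 1 to 3, and to 39753, 117611 and 103587 in control libraries 1 to 3. Histone peaks held 158, 601 and 835 of them with emetine, against 120, 379 and 555 in the control. As shares these were 0.386%, 0.573% and 0.860% with emetine, against 0.302%, 0.322% and 0.536% in the control. The lowest emetine share lay under the highest control share, while at equal library numbers the emetine share was the higher in 3 of 3. The means were 0.607% ± 0.239 with emetine and 0.387% ± 0.130 in the control (SD, n = 3 each).

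After the authors' normalisation the summed histone reads were 1400, 1805 and 2344 with emetine, against 960, 1070 and 1347 in the control. Here the lowest emetine library lay above the highest control library. The means were 1850 ± 473 with emetine, against 1126 ± 199 in the control (SD, n = 3 each), a ratio of 1.64. Between the shallowest libraries of the 2 treatments the ratio was 1.46, and between the deeper ones 1.72. Overlapping peaks of a gene can hold the same reads, so such sums may count a read more than once: 19 of the 72 neighbouring pairs of histone peaks overlapped, and 3 pairs had identical reads in every library.

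No single histone peak passed the test. In the fit over all peaks (limma, Benjamini-Hochberg adjustment at 0.05), 0 of the 107 histone peaks were called, against 0.0% of all 22499 peaks, with 0.784 as the lowest adjusted value. Before adjustment, 1 histone peak that was higher with emetine and 0 that were lower had p under 0.05, against 0.769% and 0.298% of all peaks. With limma-voom, which also called 0 peaks, 3 histone peaks had p under 0.05, against 2.45% of all peaks. Changes are given as log2 of emetine over control on normalised reads plus 1. The estimate was above 0 for 75 histone peaks and below 0 for 32, while 50.2% of all peaks were above 0. The median change was 0.69 for histone peaks and 0.01 for all peaks; for histone peaks it was 0.36 without emetine library 3, 1.14 without emetine library 1, 0.46 without control library 2 and 1.15 without control library 3. In 10 histone peaks all 3 emetine libraries lay above all 3 control libraries, an order found in 2.55% of all peaks. The opposite order was found in 0 histone peaks and in 1.43% of all peaks.

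These estimates rest on few reads. At least 50% of the reads came from 1 library in 74 of the 107 histone peaks (69.2%), against 83.7% of all peaks. The median standard error of a histone peak's log2 change was 2.04. A mean of logarithms and a ratio of read totals can then point in different directions, as they did for 14 histone peaks (13.1%) and for 8.75% of all peaks. With the read totals, the median log2 ratio was 1.11 over histone peaks and -0.07 over all peaks.

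**Figure D1:**
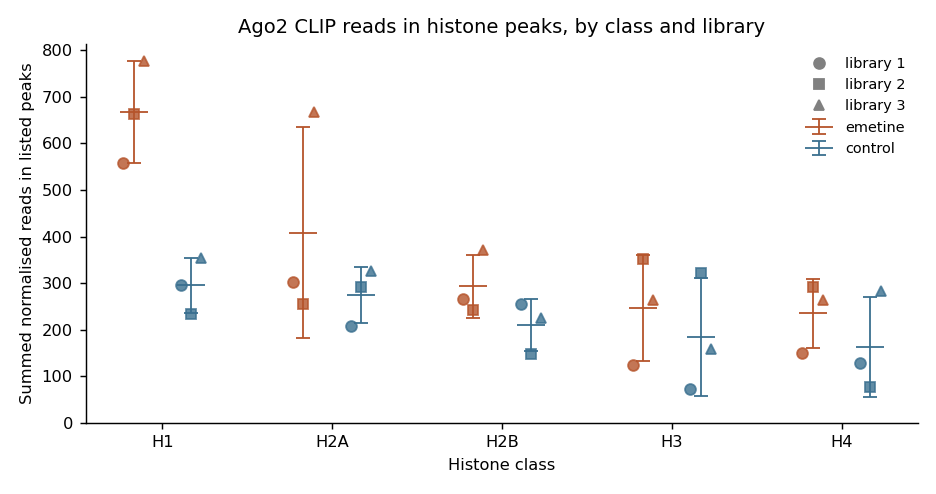
Summed normalised Ago2 CLIP reads in histone peaks (vertical axis) by histone class, with emetine left of control. Symbols are libraries, horizontal bars are means and whiskers are SD (n = 3 each). The emetine and control libraries do not overlap for H1 and overlap for the core histones.

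H1, the linker histones, had the highest class median. Of 20 peaks, 19 had an estimate above 0 and 1 below, with a median log2 change of 1.29. Without emetine library 3 the H1 median was 0.53 and the H4 median 0.61, so the first place of H1 rests on that library. The 3 emetine libraries held 63, 221 and 277 H1 reads, and the 3 control libraries 37, 83 and 146. Scaled by library, the ratio of totals was 2.34, with an exact binomial interval of 2.02 to 2.72 at the 95% level. This and all intervals of read totals cover counting error only and do not include the spread between libraries. Where summed peaks overlap and hold the same reads, the intervals are too narrow even for counting error.

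HIST1H1C, which encodes a linker histone found in most dividing and resting cells, held 19.5% of all reads in histone peaks. Its 9 peaks together had 47, 146 and 186 reads with emetine, against 26, 40 and 72 reads in the control. The emetine libraries lay above the control libraries, at 459 ± 55.7 normalised reads with emetine and 165 ± 48.3 in the control (SD, n = 3 each). The log2 change was 1.51 (SE 0.66), with an unadjusted p of 0.022 and an adjusted p of 0.799 in the limma fit over all genes, and the ratio of totals was 3.05 (2.50 to 3.74). Over the other settings the log2 change of this gene stayed between 1.26 and 1.76, and the adjusted p was at least 0.635. Without HIST1H1C the histone sums of the 2 treatments had a ratio of 1.45, and the median change of the remaining 98 peaks was 0.58.

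One coding peak of HIST1H1C carried 58.2% of its reads. It was the last of the 9 peaks in the direction of transcription, at chr6:26056062-26056112 (hg19, minus strand), and began 568 nt downstream of the 5' edge of the first one. It had 18, 86 and 124 reads with emetine, against 14, 17 and 42 in the control, the most of any histone peak. All emetine values exceeded the control values after normalisation, and the log2 change was 1.56 (SE 1.16; adjusted p 0.784, limma). The neighbouring coding peak, chr6:26056118-26056192, had 3, 7 and 15 reads with emetine, against 0, 0 and 4 in the control. The coding peak at chr6:26056385-26056446 had 4, 9 and 10 reads with emetine, against 0, 7 and 4 in the control. These 3 peaks of HIST1H1C were the ones without overlap between treatments. The coding peak at chr6:26056534-26056561 had 8, 13 and 8 reads with emetine, against 0, 15 and 0 in the control, and its treatments overlapped through control library 2. One coding peak went the other way, with 0, 0 and 3 reads with emetine, against 1, 0 and 12 in the control. In the 5' UTR the gene had 3, 3 and 5 reads with emetine, against 9, 0 and 8 in the control, with overlapping treatments.

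HIST1H1E, another linker histone gene with 9 peaks, had its reads spread along the transcript. The gene held 16, 45 and 87 reads with emetine, against 11, 30 and 74 in the control, and the treatments overlapped (log2 change 0.60, SE 0.88). Its coding peak at chr6:26156804-26156843 had 5, 1 and 11 reads with emetine, against 0 in each control library, at least 6.30-fold higher when the control is set at a floor of 3 reads over its 3 libraries. The floor leaves out the counting error of the emetine reads, and the exact interval of that ratio begins at 4.59. That peak had the smallest p of all histone peaks (0.045 unadjusted, 0.784 adjusted, limma). Each peak with recovered reads had at least 11 over both treatments, so a peak without control reads has a high ratio by selection. Peaks without control reads numbered 9 of the 107 histone peaks and 3982 of all 22499 peaks. The largest HIST1H1E peaks lay in the UTRs. The 5' UTR peak had 3, 9 and 15 reads with emetine, against 5, 3 and 34 in the control, a log2 change of 0.01 (SE 1.55). The 3' UTR peak at chr6:26157276-26157330 had 2, 25 and 13 reads with emetine, against 2, 8 and 18 in the control, and a shorter peak that overlaps it had 2, 1 and 11 with emetine, against 1, 4 and 6 in the control. HIST1H1D, the remaining linker histone gene, had 0, 30 and 4 reads with emetine, against 0, 13 and 0 in the control, so that nearly all came from 1 library of each treatment.

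**Figure D2:**
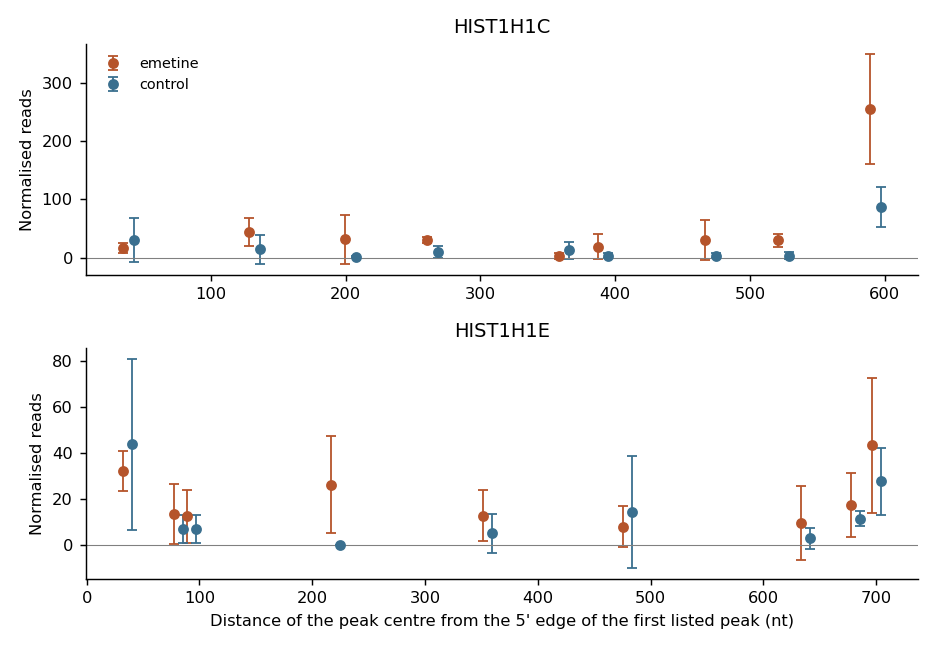
Mean normalised reads (vertical axis, whiskers SD, n = 3 each) of each peak of HIST1H1C and HIST1H1E against the distance of the peak centre from the 5' edge of the first listed peak (horizontal axis, nt), emetine drawn left of control. In HIST1H1C the last peak stands above all others in both treatments; in HIST1H1E the highest means lie at both ends.

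H2A genes differed among themselves. The class had 34, 85 and 238 reads with emetine, against 26, 103 and 134 in the control, with overlapping normalised sums (log2 median 0.73 over 29 peaks, 17 above and 12 below 0). Without emetine library 3 that median was -0.34. HIST1H2AE, the H2A gene with the most reads, had 9, 7 and 38 with emetine, against 13, 43 and 24 in the control (log2 change -0.66, SE 1.12). Its 6 peaks were mixed. The coding peak at chr6:26217247-26217271 had 3, 6 and 10 reads with emetine, against 0, 0 and 2 in the control, without overlap, whereas the coding peak at chr6:26217348-26217390 had 1, 0 and 4 with emetine, against 5, 17 and 0 in the control. HIST2H2AC had 8, 1 and 66 reads with emetine, against 0, 0 and 10 in the control, in 2 overlapping 3' UTR peaks, most of them from 1 emetine library. Its larger peak, chr1:149858904-149858958, had 6, 1 and 43 reads with emetine, against 0, 0 and 5 in the control (log2 change 3.66, SE 1.92). HIST1H2AH had 5, 19 and 30 reads with emetine, against 4, 8 and 15 in the control, and the treatments did not overlap (log2 change 0.98, SE 1.36). Its 3' UTR peak at chr6:27115282-27115325 had 1, 11 and 7 reads with emetine, against 1, 0 and 3 in the control, also without overlap.

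The coding peak of HIST1H2AG at chr6:27100968-27100999 had 1, 9 and 6 reads with emetine, against 0 in each control library, at least 5.93-fold higher by the same floor, with an exact interval that begins at 4.29. HIST1H2AI, with 1 peak in its 3' UTR, had 3, 13 and 9 reads with emetine, against 0, 4 and 27 in the control. There the 2 measures disagreed, with a log2 change of 1.72 (SE 1.73) and a ratio of totals of 0.896 (0.507 to 1.57). HIST1H2AC had 1, 17 and 0 reads in its 5' UTR peak with emetine, against 0, 0 and 12 in the control. The peak of HIST1H2AM had 0 reads in each emetine library and 0, 14 and 0 in the control, at least 4.2-fold lower with emetine by the same floor, with an exact interval of the ratio up to 0.335. All of these reads came from a single control library. Peaks without emetine reads, with a low ratio by the same selection, numbered 3 of the 107 histone peaks and 4540 of all 22499 peaks.

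H2B genes had 30, 81 and 132 reads with emetine, against 32, 52 and 93 in the control, with overlapping normalised sums and a median log2 change of 0.51 over 21 peaks, which was 0.06 without emetine library 3. HIST1H2BH had 4, 26 and 23 reads with emetine, against 0, 1 and 5 in the control. The treatments did not overlap, and the log2 change was 3.96 (SE 1.95; unadjusted p 0.042, adjusted p 0.799, limma over all genes), with a ratio of totals of 9.82 (4.22 to 27.9). Over the other settings its log2 change lay between 2.82 and 4.88. Its 4 peaks were all coding and all had estimates above 0, and the first of them had 4, 7 and 7 reads with emetine, against 0, 1 and 1 in the control. HIST1H2BJ, the H2B gene with the most reads, had 6, 16 and 39 with emetine, against 17, 18 and 9 in the control (log2 change 0.29, SE 1.21). Of these, 47.6% lay in a 3' UTR peak with 3, 11 and 19 reads with emetine, against 8, 7 and 2 in the control.

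The coding peak of HIST1H2BG at chr6:26216729-26216757 had 6, 4 and 20 reads with emetine, against 0, 1 and 23 in the control. The gene as a whole had 9, 4 and 29 with emetine, against 3, 5 and 31 in the control, a log2 change of 0.53 (SE 1.44). HIST2H2BE had 5, 18 and 6 reads with emetine, against 5, 27 and 5 in the control, a log2 change of 0.03 (SE 1.46). For both genes the libraries of the 2 treatments overlapped. The 5' UTR peak of HIST1H2BK had 3, 5 and 3 reads with emetine, against 0 in each control library. Most coding windows of this gene were repeated elsewhere, but its UTR sequence was not compared. HIST1H2BC had 1, 0 and 0 reads with emetine, against 0, 0 and 20 in the control, all of the control reads from 1 library.

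H3 genes had 14, 117 and 94 reads with emetine, against 9, 114 and 65 in the control, with a median log2 change of 0.34 over 19 peaks; it was 0.05 without control library 1 and 0.08 without emetine library 3. HIST1H3B had 8, 22 and 26 reads with emetine, against 7, 47 and 39 in the control (log2 change -0.34, SE 1.08). HIST1H3H had 0, 30 and 29 with emetine, against 1, 43 and 14 in the control (log2 change -0.79, SE 1.63). Its ratio of totals, 1.13 (0.773 to 1.65), lay on the other side of no change. Its largest peak, chr6:27778017-27778076, had 0, 0 and 10 reads with emetine, against 0, 25 and 9 in the control. HIST1H3F had 6, 20 and 11 reads with emetine, against 0, 13 and 5 in the control (log2 change 2.58, SE 1.78). For all 3 genes the treatments overlapped. The 5' UTR peak of HIST1H3D had 0, 26 and 8 reads with emetine, against 0, 0 and 2 in the control, and the 3' UTR peak of HIST1H3A had 0, 15 and 6 with emetine, against 0, 0 and 2 in the control. A coding peak of HIST1H3A and one of HIST1H2AB had identical reads in all 6 libraries, 0, 0 and 14 with emetine, against 0, 0 and 3 in the control, although they are listed at different positions. Of the 30-base coding windows of HIST1H3A, 0.0% occurred in a gene elsewhere, and the cause of the identity was not tested.

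H4 genes had 17, 97 and 94 reads with emetine, against 16, 27 and 117 in the control, with overlapping normalised sums and a median log2 change of 0.56 over 18 peaks, which was 0.18 without control library 2. HIST1H4C had 1, 36 and 17 reads with emetine, against 3, 0 and 45 in the control. HIST1H4H had 10, 16 and 24 with emetine, against 1, 12 and 32 in the control, and HIST1H4E had 1, 13 and 21 with emetine, against 7, 3 and 14 in the control. The log2 changes of these genes were 1.42 (SE 1.69) for HIST1H4C, 1.20 (SE 1.35) for HIST1H4H and 0.11 (SE 1.59) for HIST1H4E, each with overlapping treatments. Of the 18 H4 peaks, 0 separated the treatments, against 2.55% of all peaks with emetine higher and 1.43% with emetine lower. In their 3' UTRs, HIST1H4A had 0, 9 and 10 reads with emetine, against 0, 12 and 5 in the control, and HIST4H4 had 3, 3 and 2 with emetine, against 3, 0 and 17 in the control. The pair of 3' UTR peaks of HIST1H4C differed from each other, with 0, 0 and 2 reads with emetine, against 1, 0 and 17 in the control at the first, and 0, 5 and 7 with emetine, against 2, 0 and 7 in the control at the second.

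**Figure D3:**
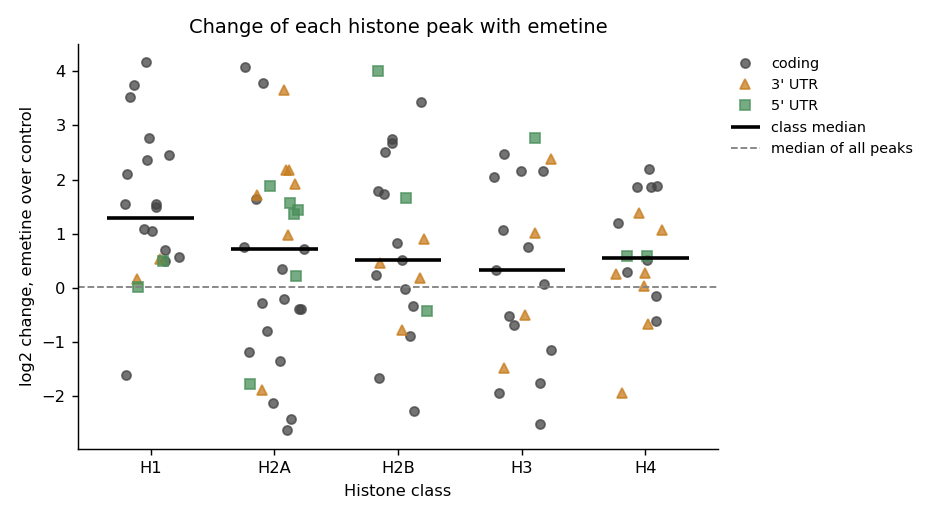
The log2 change of each of the 107 histone peaks (vertical axis, emetine over control) by histone class; symbols give the transcript region, solid bars the class medians and the dashed line the median of all peaks. The H1 median, 1.29, is the highest with all 6 libraries but not without emetine library 3, and every class holds peaks on both sides of 0.

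Reads were also summed over the peaks of each gene. Of the 35 genes, 28 had an estimate above 0 and 7 below, against 51.1% above 0 for all genes, and the median log2 change was 0.96 for histone genes and 0.04 for all genes. The limma fit called 0 histone genes, as it called 0.0% of all 6319 genes. At an unadjusted p under 0.05 there were 2 histone genes, HIST1H1C and HIST1H2BH, both higher with emetine, against 1.08% of all genes in that direction. HIST1H1C, HIST1H2AH and HIST1H2BH separated the treatments with emetine higher, against 3.01% of all genes, and 0 histone genes separated them the other way, against 2.18%. The 20 genes outside the 3 with the most reads in each class had 11 to 59 CLIP reads, with 16 estimates above 0 and 4 below, between -2.28 for HIST3H2BB and 3.96 for HIST1H2BH. Peaks within a gene often disagreed: 14 of the 26 genes with several peaks had estimates on both sides of 0.

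Coding and UTR peaks of histones were compared next. For the 69 coding peaks the median was 0.73 on the log2 scale, with 45 above and 24 below 0. The 24 peaks in 3' UTRs had a median of 0.49, with 18 above and 6 below 0, and the 14 in 5' UTRs had a median of 0.98, with 12 above and 2 below 0. Over all listed peaks the medians were 0.29 for coding sequence, -0.17 for 3' UTRs and 0.19 for 5' UTRs. Each histone region thus had a median above that of the same region over all peaks. The difference between coding and 3' UTR medians among histone peaks was 0.24, and it was -0.17 without control library 1, so no order of the regions can be given. The ratio of totals was 1.75 (1.59 to 1.93) for coding, 1.54 (1.31 to 1.80) for 3' UTR and 1.62 (1.30 to 2.04) for 5' UTR peaks. For H1, the 16 coding peaks had a median of 1.55 with 15 above 0, while for H2A the 16 coding peaks had a median of -0.33 with 6 above 0 and the 7 peaks in 3' UTRs had a median of 1.92 with 6 above 0. These differences between classes were not tested. The 7 H2A peaks in 3' UTRs came from 5 genes. The peak at their median, that of HIST2H2AB, had 0, 0 and 19 reads with emetine, against 0 in each control library.

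RNA abundance was measured in 1 library per treatment, so RNA ratios have no replicate check and intervals cover counting error only. The labels name total RNA as the molecule and give no selection step, which bears on transcripts without a poly(A) tail. In these bulk samples a different number of cells in S phase and a different amount of histone RNA per cell cannot be told apart. Histone genes had 29 to 2465 RNA reads with emetine, against 5 to 1016 in the control. With at least 50 reads over both libraries, 32 genes had a median log2 ratio of 0.28, against 0.01 for all genes. The ratio was above 0 for 25 genes and below 0 for 7, against 51.0% above 0 among all genes. It was above 1 for 7 genes, against 0.844% of all genes, and under -1 for 0, against 0.792%. The exact interval lay above 0 for 15 histone genes, against 13.8% of all genes, and below 0 for 1, against 13.7% of all genes.

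H2A had the highest class median of the RNA ratios, 0.94, against 0.29 for H2B, 0.25 for H1, 0.11 for H3 and -0.06 for H4. The order depends on the measure. With normalised RNA reads summed over all genes of a class, the log2 ratio was 0.59 for H1, 0.43 for H2B and 0.41 for H2A. It was 0.06 for H4 and -0.03 for H3. HIST1H2AL, read 499 times with emetine, against 81 times in the control, stood at 1.28 (0.94 to 1.64) on the log2 scale after normalisation. HIST1H1D followed at 1.24 (0.99 to 1.51), from 855 emetine and 142 control reads. HIST1H2AM had 1.16, HIST2H2AB 1.15 and HIST2H2AC 1.12, and the intervals of these 5 genes overlapped. At the low end HIST1H2AC, with 533 emetine and 322 control reads, stood at -0.62 (-0.82 to -0.41), the 1 interval under 0. HIST1H4A had -0.29, HIST4H4 -0.10, HIST1H3B -0.07 and HIST1H4H -0.06, each with an interval that includes 0.

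**Figure D4:**
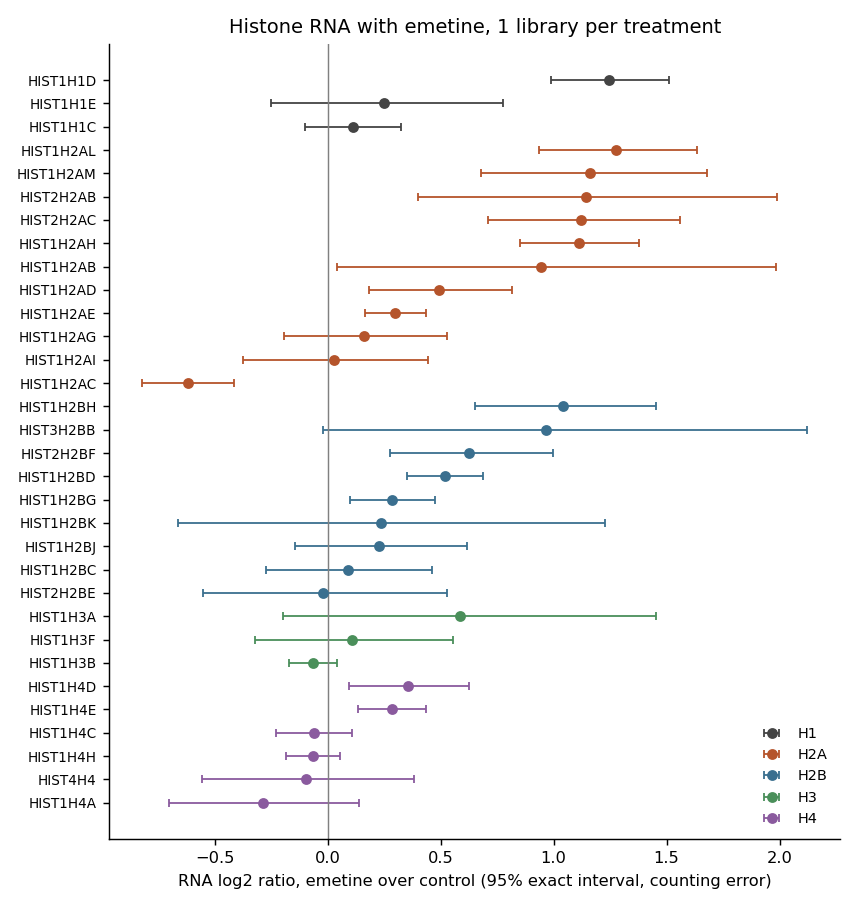
RNA log2 ratio of emetine over control (horizontal axis, points) for the 32 histone genes with at least 50 RNA reads, 1 library per treatment; whiskers are exact 95% intervals for counting error and colours are classes. Points run from -0.62 for HIST1H2AC to 1.28 for HIST1H2AL, and most H2A genes lie right of 0.

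CLIP and RNA values of the same genes were set side by side. HIST1H1C, with a CLIP ratio of totals of 3.05, had 699 emetine and 255 control RNA reads, or 0.11 on the log2 scale (-0.10 to 0.32). HIST1H2BH had a higher value in both, with an RNA log2 ratio of 1.04 (0.65 to 1.45). HIST1H2AC was lower in RNA and had 1, 18 and 0 CLIP reads with emetine, against 1, 0 and 21 in the control. Across the 32 genes Pearson's r between the RNA log2 ratio and the CLIP log2 change was 0.20 and Spearman's rho 0.29, given as a description, since all genes share the same libraries. In the authors' deposited table, where the CLIP ratio is already relative to RNA, the median log2 ratio was 0.31 over histone peaks and 0.05 over all peaks. It was above 0 for 65 of the 107 histone peaks, against 50.8% of all peaks.

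Genes that act with the histones were read from 4 lists, against the same medians of all peaks. Of 31 listed genes of histone mRNA processing and decay, 17 had peaks; 18 of their 39 peaks had an estimate above 0 and 21 below, with a median log2 change of -0.19. SNRPB, a shared core protein of spliceosomal and U7 snRNPs, had 5, 44 and 18 reads with emetine, against 7, 3 and 45 in the control. CASP8AP2, needed for histone gene expression in S phase, had 0, 21 and 38 with emetine, against 0, 0 and 6 in the control. ERI1, an exonuclease that trims the histone 3' end, had 0, 21 and 6 with emetine, against 0, 6 and 27 in the control. All 3 genes had overlapping treatments.

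Of 11 genes listed as replication-independent histones, 8 had peaks, with 22 of 41 above 0 and a median of 0.21. H3F3B, a gene for the replacement histone H3.3, had 22, 88 and 30 reads with emetine, against 0, 52 and 27 in the control. H1F0, a linker histone of non-dividing cells, had 10, 30 and 47 with emetine, against 20, 66 and 22 in the control, and H1FX had 9, 35 and 26 with emetine, against 11, 32 and 53 in the control. Among 23 histone chaperones, 17 had peaks, with 36 of 81 above 0 and a median of -0.29. NCL had 27, 42 and 69 reads with emetine, against 34, 46 and 25 in the control. RBBP7, a subunit of histone-binding complexes, had 5, 65 and 63 with emetine, against 1, 21 and 24 in the control, and ASF1B, which carries H3 and H4, had 6, 4 and 43 with emetine, against 8, 67 and 40 in the control.

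Among 25 genes of S phase and DNA replication, 18 had peaks, with 45 of 77 above 0 and a median of 0.80. PCNA, the sliding clamp of the replicative polymerases, had 39, 93 and 92 reads with emetine, against 7, 25 and 12 in the control, without overlap. Such an order, with emetine higher, was found in 3.01% of all genes. E2F1, a transcription factor of the G1 to S transition, had 14, 34 and 20 with emetine, against 28, 10 and 43 in the control. MCM6, a subunit of the replicative helicase, had 6, 81 and 19 with emetine, against 0, 0 and 22 in the control. In each of these 4 lists, 0 peaks were called by limma, against 0.0% of all 22499 peaks. Of 9 genes known for 293 cells, 3 had peaks, among them the neurofilament gene NEFL with 29, 171 and 153 reads with emetine, against 41, 181 and 216 in the control. Of 11 markers of other cell types, 0 had a listed peak.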

How the data were processed

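Ago2 CLIP (3 libraries per treatment) and RNA-seq (1 per treatment) came from 293S cells, 8 libraries in all, grouped by the treatment in the labels. The authors made, per the file headers, an average abundance per peak normalised to RNA and an emetine/no emetine ratio, and deposited both as logarithms; the files' values are on the natural log scale (ln), which the headers leave unnamed. The submitters' processing notes name hg19, Bowtie 0.12.8, TopHat and DESeq, without roles. How peaks were called is not given in the sources used here. Coordinates stand as in the table.

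For a treatment, the deposited ln value is the average of ln(1 + reads × factor) for its 3 CLIP libraries, less the RNA term. Whole reads were recovered from this for 22499 of 22506 peaks (tolerance 2e-13), and the search was tested on simulated data. Each such peak had at least 11 reads. A single read counted as 8.86, 3.00 and 2.81 normalised units (emetine CLIP), 8.00, 2.82 and 2.43 (control CLIP), 2.51 (emetine RNA) and 6.37 (control RNA). Antibodies could not be assigned to libraries, so the planned antibody block was replaced by treatment alone: limma 3.58.1 (R 4.3.3), trend option, on log2 of normalised reads plus 1, fitted over all peaks or gene sums and adjusted by Benjamini-Hochberg (0.05). Count models were not used. Read totals were compared after scaling by summed inverse factors, with exact binomial intervals and a floor of 3 reads. RNA ratios used genes with at least 50 reads. Tables and figures used Python 3.11.15, scipy 1.17.1 and matplotlib 3.10.9.

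The members and the gene lists were chosen with earlier results of these data known. Named in the text were, per class, the 3 genes with the most reads, the 10 peaks with the most reads, the 8 with the smallest p, UTR peaks with at least 20 reads, the 5 highest and 5 lowest RNA ratios and 3 genes per list; HIST1H1C, HIST1H2AH and HIST1H2BH were also singled out for separating the treatments, and a few members after their values were seen. Alternatives covered the added constant (0.5 and 5), scaling, limma-voom, depth class, a block of libraries of equal number, each library left out, low reads and identical peaks.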

Additional observations from a re-analysis of the deposited data

How the results depend on the processing

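Counts of called histone peaks and histone genes were 0 under each alternative run, and the smallest adjusted p of a histone peak over the settings was 0.656. With each library left out in turn, the median log2 change of histone peaks ran from 0.36 to 1.15 and the number above 0 from 61 to 78. The H1 median then ran from 0.53 to 1.73. The H2A median ran from -0.34, without emetine library 3, to 1.04, and the coding minus 3' UTR difference from -0.17, without control library 1, to 0.60; the cause was not tested. With reads summed per gene, 28 of 35 genes were above 0, a smaller number because genes replace peaks. The emetine minus control share of peak reads was 0.220 percentage points, 0.0933 (without emetine library 3) to 0.330 (without emetine library 1) and 0.128 without HIST1H1C. At an unadjusted p under 0.05 the fit with treatment alone had 1 histone peak (1.07% of all peaks), the depth class block 9 (1.93%), limma-voom 3 (2.45%) and a constant of 5 gave 0 (0.751%). Scaling by summed RNA reads moved the median histone RNA ratio to 0.35 from 0.28 and that of all genes by 0.07. The deposited values do not name the antibody of a recovered library, so no pairing by antibody was fitted. Libraries of equal number had like shares of reads in noncoding exons, 45.6%, 6.33% and 13.7% with emetine, against 43.0%, 6.40% and 13.3% in the control, a likeness seen in the data and not given by the design. Their deviations from the treatment means correlated at 0.15, 0.04 and 0.04, each the highest for its library. A replicate block of these libraries, chosen after seeing the data, called 3 of all peaks, 0 histone peaks and 0 histone genes. It gave 9 histone peaks with an unadjusted p under 0.05 (2.84% of all peaks), and for HIST1H1C an unadjusted p of 0.0022 and an adjusted p of 0.748 (limma; 0.635 to 1.00 over the settings). The count of all peaks called was 0 under the other alternatives. Depth limits single peaks, of which the median one holds 19 reads.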
